A study of Mus musculus with 6 samples.

Results

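The neurotrophin system was examined in the hippocampus of p300-ifKO mice and control littermates through 7 genes, chosen by name as 2 ligands and 5 receptors: Bdnf, Ntf3, Ntrk2, Ntrk3, Ngfr, Sort1 and Sorcs2. They are 7 of the 55471 genes counted by RNA-seq, and all 7 had reads in every library and entered the test. Hippocampal RNA was sequenced from 3 p300-ifKO and 3 control mice of the strain C57BL/6 (C57BL/6J in the methods), 3 to 6 months old and, per the methods of the study, male, with 1 library per mouse. An ifKO (inducible forebrain knock-out) carries a floxed Ep300 and the Camk2a_creERT2 driver, a Cre recombinase that needs tamoxifen to act. All 6 mice received tamoxifen, in 5 doses of a solution of 20 mg/ml on alternate days. The sources conflict on the controls: the protocol has them as littermates lacking the driver, yet their descriptions list it. Estrogen receptor reads, part of which the driver itself can give, were at 87.2 to 109 normalized counts (counts divided by the size factor of the library) of Esr1 in controls and at 2416 to 4217 in p300-ifKO.

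The model has limits that bear on these genes. Camk2a drives recombination in excitatory forebrain neurons, so glia, interneurons and vessels of the same hippocampus keep an intact Ep300. Per the study, the recombined allele still gives a truncated p300 without its acetyltransferase domain. Because whole tissue was sequenced, fewer cells of a type and less RNA per cell cannot be told apart.

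Neurotrophins are small secreted growth factors that keep neurons alive during development and tune synapses in the adult. Brain-derived neurotrophic factor (BDNF, from Bdnf) acts through the receptor tyrosine kinase TrkB (Ntrk2), and neurotrophin-3 (from Ntf3) mainly through TrkC (Ntrk3). The uncleaved precursors bind the low-affinity receptor p75NTR (Ngfr) together with a member of the sortilin family, such as sortilin (Sort1) or SorCS2 (Sorcs2), which also sort these proteins inside the cell. In the hippocampus, BDNF and TrkB are best known for their part in long-term potentiation and memory, and Bdnf is a classic target of neuronal activity. The acetyltransferase p300 is a coactivator that CREB, the factor that binds the cAMP response element (CRE), can recruit to such genes. The comparison therefore asked whether the genes of this system differ when p300 is lost from mature excitatory neurons.

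Bdnf is transcribed from several starts, which the counts of a whole gene do not separate. Of the 7 genes, 4 matched the table of RefSeq promoter windows (build GRCm38.p6, 250 bases before to 50 after a start), Bdnf with 7 starts, Ntf3 with 2 and Ntrk2 and Ngfr with 1 each, and Ntrk3, Sort1 and Sorcs2 did not. The CRE letters TGACGTCA, which read the same on both strands, were in 0 of these 11 windows and in 1.79% of the 32851 windows of the table. The related letters TCACGTCA, or TGACGTGA on the other strand, were in 1 of the 11 and in 0.441% of all. The window that holds them is shown first because CRE-like letters of this kind are known from an activity-dependent Bdnf promoter. It lies inside the Bdnf gene, on the plus strand at chr2:109692186-109692485, and the capitals mark TCACGTCA at bases 213 to 220, with 30 bases between it and the start. The window of the first Ntf3 start, on the minus strand at chr6:126166695-126166994, is given for comparison as that of the other ligand and holds neither motif. Their GC content was 48.7% and 61.0%.
Bdnf: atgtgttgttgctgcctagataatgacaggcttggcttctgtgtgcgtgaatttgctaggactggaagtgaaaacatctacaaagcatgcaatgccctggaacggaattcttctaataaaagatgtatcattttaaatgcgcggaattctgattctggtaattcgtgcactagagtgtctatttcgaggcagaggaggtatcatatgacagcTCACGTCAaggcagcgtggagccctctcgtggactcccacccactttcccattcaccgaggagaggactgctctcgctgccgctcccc
Ntf3: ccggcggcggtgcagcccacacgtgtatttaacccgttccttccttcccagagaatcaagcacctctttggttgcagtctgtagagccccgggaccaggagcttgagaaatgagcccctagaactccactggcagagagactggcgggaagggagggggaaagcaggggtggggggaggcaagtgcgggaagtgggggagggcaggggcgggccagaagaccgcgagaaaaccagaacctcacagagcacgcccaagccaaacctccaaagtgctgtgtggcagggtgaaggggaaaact
These letters describe the windows only, since neither p300 nor CREB was measured on the DNA in these libraries.

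Libraries held between 23151568 and 28433823 counts. The targeted gene Ep300, which was read as a whole gene, was at 1545, 1474 and 2334 normalized counts in controls and at 478, 1350 and 912 in p300-ifKO, so that p300-ifKO replicate 2 came closest to the controls. Its log2 fold change was -0.97 (SE 0.33, DESeq2 unadjusted p = 0.0037, adjusted p = 0.991). The groups did not overlap, yet the targeted gene itself was not called. The labelled tissue was in keeping with the markers: genes of excitatory neurons summed to 1587 to 2157 RPKM (reads per kilobase of exon, scaled to the total counts of the library) over the 6 libraries, and those of dentate granule cells to 83.5 to 102. Libraries also differed by a trend that ran with transcript length. Across 13608 genes, Spearman's rho between the log2 deviation of a gene from its mean and its exonic length was 0.26, 0.22 and 0.57 in controls and -0.62, 0.57 and -0.39 in p300-ifKO. In this trend p300-ifKO replicate 2 stood with the controls, and p300-ifKO replicates 1 and 3 stood apart. Each member is therefore given below with its place in the trend. Ep300 has 14273 exonic bases, and the part of the trend in its values was not tested.

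None of the 7 genes passed the test. With DESeq2, 0 of 7 had an adjusted p under 0.05, against 0.0061% of the 32773 genes tested (2 genes), and 0 of 7 had an unadjusted p under 0.05, against 1.32% of genes (432 genes). Their unadjusted DESeq2 p-values ran from 0.0956 for Bdnf to 0.960 for Ngfr. The edgeR quasi-likelihood test gave 2.30% at an unadjusted p under 0.05 and likewise none of the 7. The values of control and p300-ifKO mice overlapped for all 7, where the groups did not overlap for 6.64% of the genes tested. The fold change was below 0 for 5 of the 7 and for 54.7% of all genes tested (50.6% of those with a mean of at least 50 normalized counts). The median log2 fold change was -0.19 over the 7, -0.046 over all and -0.0043 over those with that mean.

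**Figure D1:**
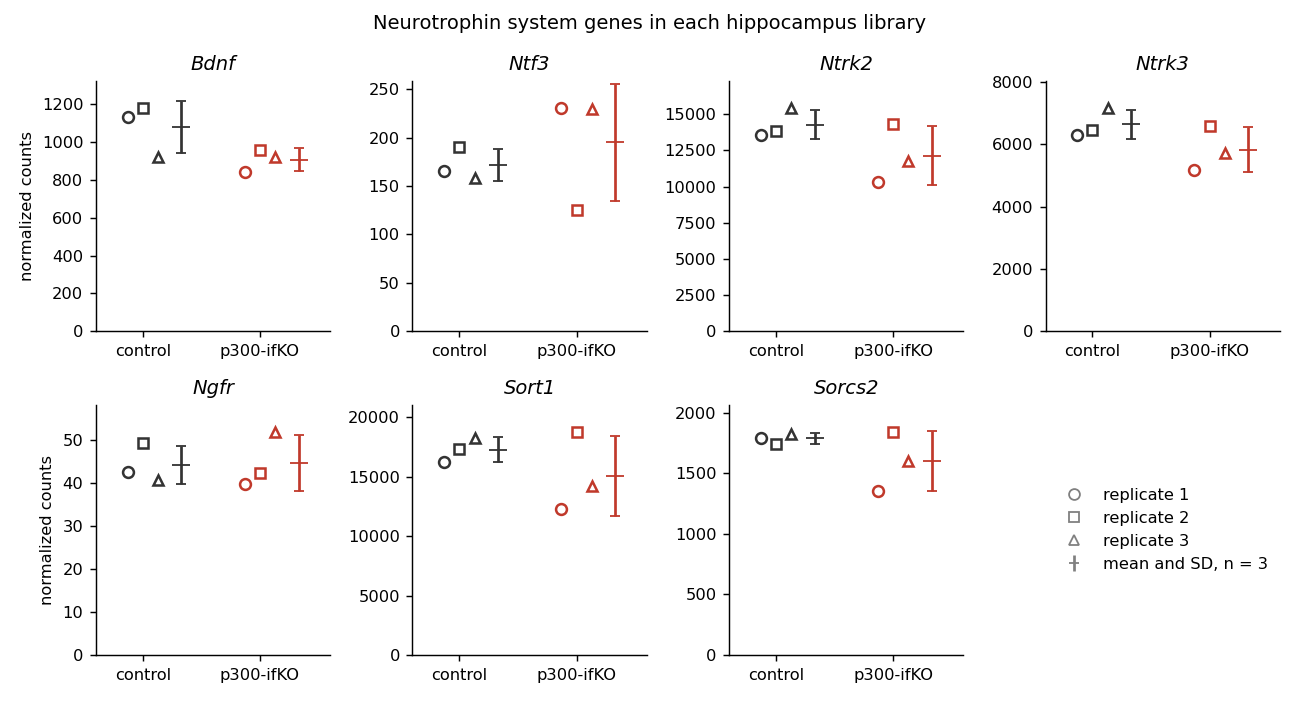
Normalized counts (vertical axes, from 0) of the 7 genes in the 3 control (black) and 3 p300-ifKO (red) libraries, with a symbol for each replicate and the mean and SD beside them. The groups overlap in every panel. In the panels of Ntrk2, Ntrk3, Sort1 and Sorcs2, p300-ifKO replicate 1 is the lowest of the 6 libraries and p300-ifKO replicate 2 lies above at least 2 of the 3 controls.

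The ligands were examined first. Bdnf (ENSMUSG00000048482, chr2:109674700-109727007, plus strand) was at 1133, 1182 and 923 normalized counts in controls and at 841, 958 and 923 in p300-ifKO. The first 2 controls were the highest libraries, whereas the third control lay among the p300-ifKO mice. The mean was 1079 ± 138 (SD, n = 3) in controls and 907 ± 60.0 in p300-ifKO. The log2 fold change was -0.25 (SE 0.15, 95% interval -0.54 to 0.044) and the DESeq2 adjusted p 0.991. Bdnf differs from the other abundant members in its spread: its coefficient of variation was 12.8% in controls and 6.62% in p300-ifKO, while it was larger in p300-ifKO for the other 5 members with a mean of at least 50 normalized counts and for 77.1% of such genes. Antisense transcripts are annotated over Bdnf, and 14.4% of its exonic bases (896 bp) lie opposite Gm45346, which had at most 1 count in a library.

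Ntf3 (ENSMUSG00000049107, chr6:126101412-126166910, minus strand), whose product supports TrkC-bearing neurons, was at 166, 190 and 158 normalized counts in controls. In p300-ifKO it was at 231, 125 and 230. Replicates 1 and 3 of p300-ifKO were thus the highest of the 6 libraries and replicate 2 the lowest. The means were 171 ± 16.7 and 195 ± 60.5 (SD, n = 3), a log2 fold change of 0.19 (SE 0.27, 95% interval -0.34 to 0.71; DESeq2 adjusted p = 0.991). The coefficient of variation was 9.72% in controls and 31.0% in p300-ifKO.

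The Trk receptors were far more abundant in counts, in part because their exons are long. Ntrk2 (ENSMUSG00000055254, chr13:58806569-59133970, plus strand), which encodes TrkB, was at 13562, 13857 and 15440 normalized counts in controls and at 10330, 14315 and 11788 in p300-ifKO. Replicates 1 and 3 of p300-ifKO were below every control, and replicate 2 was above 2 of the 3. The means of 14286 ± 1010 and 12144 ± 2016 (SD, n = 3) gave a log2 fold change of -0.23 (SE 0.16, 95% interval -0.54 to 0.072; DESeq2 adjusted p = 0.991). Ntrk2 has 10 annotated transcripts, among them kinase-bearing forms of neurons and the truncated TrkB that astrocytes make, and the counts pool them.

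Ntrk3 (ENSMUSG00000059146, chr7:78175959-78738012, minus strand), the gene of TrkC with 20 annotated transcripts, was at 6284, 6453 and 7168 normalized counts in controls. It was at 5158, 6591 and 5715 in p300-ifKO, in the same arrangement as Ntrk2. The means were 6635 ± 469 and 5822 ± 722 (SD, n = 3), and the log2 fold change was -0.19 (SE 0.14, 95% interval -0.46 to 0.085; DESeq2 adjusted p = 0.991). Across the 6 libraries the log2 values of Ntrk2 and Ntrk3 followed each other with Pearson's r of 0.996, given as a description of libraries that share the length trend.

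Ngfr (ENSMUSG00000000120, chr11:95568818-95587735, minus strand), the gene of p75NTR, was near the low end of what these libraries can compare, with 37 to 54 counts in a library. Its normalized counts were 42.8, 49.4 and 40.8 in controls and 39.7, 42.4 and 52.1 in p300-ifKO. Both the lowest and the highest library were p300-ifKO mice. The log2 fold change was 0.016 with a 95% interval from -0.59 to 0.62 (DESeq2 adjusted p = 0.997). At this depth the counts cannot tell apart the differences within that interval. Adult Ngfr transcript is best known from cholinergic neurons of the basal forebrain, whose cell bodies lie outside the hippocampus.

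The sortilin family receptors were next. Sort1 (ENSMUSG00000068747, chr3:108284082-108361511, plus strand), which encodes sortilin, was at 16234, 17323 and 18305 normalized counts in controls and at 12256, 18811 and 14235 in p300-ifKO. The p300-ifKO mice held the highest library (replicate 2) and the lowest pair (replicates 1 and 3). The means were 17287 ± 1036 and 15101 ± 3362 (SD, n = 3), a log2 fold change of -0.20 (SE 0.18, 95% interval -0.55 to 0.16; DESeq2 adjusted p = 0.991). An antisense gene, Gm12523, covers 4.47% of its exonic bases and had at most 1 count in a library.

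Sorcs2 (ENSMUSG00000029093, chr5:36017180-36398139, minus strand), a receptor of the same family that can pair with p75NTR, was the steadiest gene of the 7 in controls. It was at 1795, 1744 and 1830 normalized counts there, a coefficient of variation of 2.41%, and at 1353, 1847 and 1605 in p300-ifKO, a coefficient of 15.4%. The log2 fold change was -0.16 (SE 0.15, 95% interval -0.45 to 0.14; DESeq2 adjusted p = 0.991). Replicate 2 of p300-ifKO again exceeded all 3 controls.

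The abundance of the genes was then compared per length, as RPKM with the exonic length of the deposited table. Sort1 was the most abundant at 91.1 ± 5.62 RPKM in controls (SD, n = 3) and 80.3 ± 17.2 in p300-ifKO, followed by Ntrk2 at 29.5 ± 2.26 and 25.3 ± 4.01. Ntrk3 (8.77 ± 0.670 and 7.77 ± 0.910), Sorcs2 (8.11 ± 0.285 and 7.33 ± 1.09) and Bdnf (6.92 ± 0.833 and 5.88 ± 0.381) lay close together. Ntf3 was at 3.99 ± 0.340 and 4.60 ± 1.46 RPKM, and Ngfr at 0.512 ± 0.0457 and 0.524 ± 0.0819. The order was the same in 6 of 6 libraries for each pair of neighbours. Over all libraries, however, the ranges overlapped for Ntrk3 and Sorcs2, for Sorcs2 and Bdnf, and for Bdnf and Ntf3. Compared within a library, these pairs differed by a geometric mean fold of 1.07, 1.21 and 1.52. The SD of the log2 fold was 0.063, 0.17 and 0.43 in the same order. In p300-ifKO replicate 1, Bdnf (5.44 RPKM) and Ntf3 (5.42 RPKM) were at nearly the same level, whereas in p300-ifKO replicate 2 they were at 6.13 and 2.91. Exonic length sums the exons of all transcripts, and with the length of the longest transcript Ntrk2 came to 65.2 and Sort1 to 101 RPKM in controls, in the same order.

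**Figure D2:**
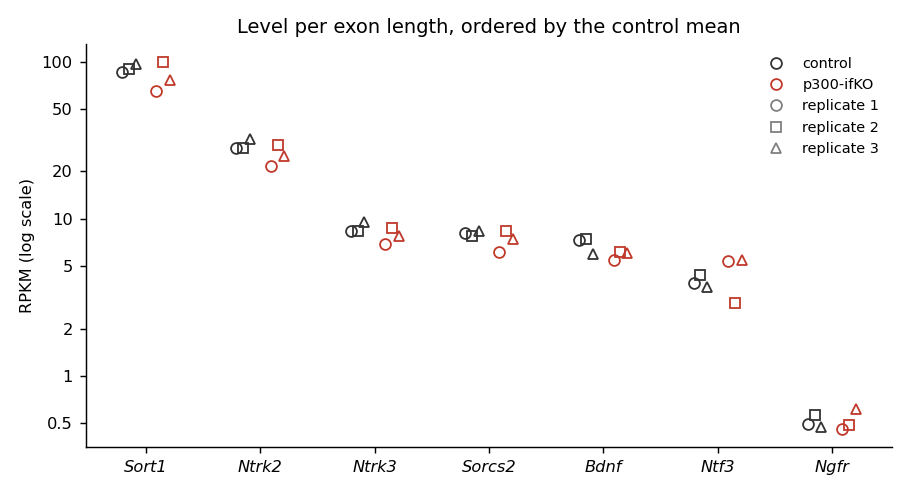
Level of each gene as RPKM (log axis) in each control (black) and p300-ifKO (red) library, ordered by the control mean. Sort1, between 65.1 and 98.9 RPKM, is above every other gene, and Ngfr, at or below 0.617 RPKM, is below every other gene in all 6 libraries.

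Ratios within a library do not depend on the scaling factor of that library. The length trend, however, need not cancel between genes of unlike length, such as Ntf3 (1714 exonic bases) and Ntrk3 (30170). Ratios of 6 pairs were compared by an exact two-sided permutation test, which with 3 against 3 cannot give a p below 0.1. The ratio of Bdnf to its receptor Ntrk2 (RPKM) was 0.259, 0.265 and 0.185 in controls and 0.253, 0.208 and 0.243 in p300-ifKO, and its log2 means differed by 0.00069 (SE 0.19; exact permutation p = 1). The ratio of Bdnf to Ntf3 was 1.88, 1.71 and 1.61 in controls, where 2 of the p300-ifKO mice had 1.004 and 1.11 and the other 2.10. The log2 difference of this ratio was -0.38 (SE 0.34; exact permutation p = 0.4, adjusted 0.75). The ratio of Ntf3 to its receptor Ntrk3 was 0.465, 0.519 and 0.388 in controls and 0.788, 0.335 and 0.707 in p300-ifKO (log2 difference 0.33, SE 0.41; exact permutation p = 0.5, adjusted 0.75). The Ntrk2 to Ntrk3 ratio was the most even, at 3.38, 3.36 and 3.37 in controls and 3.13, 3.40 and 3.23 in p300-ifKO (log2 difference -0.051, SE 0.034; exact permutation p = 0.4, adjusted 0.75). The Ngfr to Ntrk2 ratio and the Sort1 to Sorcs2 ratio differed by 0.25 (SE 0.21; exact permutation p = 0.3) and -0.045 (SE 0.078; exact permutation p = 0.8) on the log2 scale. None of the 6 ratios separated the groups.

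For 5 of the 7 genes the spread ran with the length trend of the libraries. Pearson's r with the trend over the 6 libraries was 0.97 for Ntrk2, 0.96 for Ntrk3, 0.98 for Sort1 and 0.94 for Sorcs2, the 4 receptors with exons of 7569 to 30170 bases. It was -0.91 for Ntf3, which has 1714 bases of exon, the fewest of the 7. Bdnf (6217 bases) was at 0.45 and Ngfr (3446 bases) at -0.19. With the group means taken out, the values were 0.97, 0.95, 0.97 and 0.91 for the 4 receptors, -0.97 for Ntf3, 0.10 for Bdnf and -0.21 for Ngfr, so for those 5 genes the relation also held between mice of the same genotype. The points share their libraries, and r is given without a p.

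**Figure D3:**
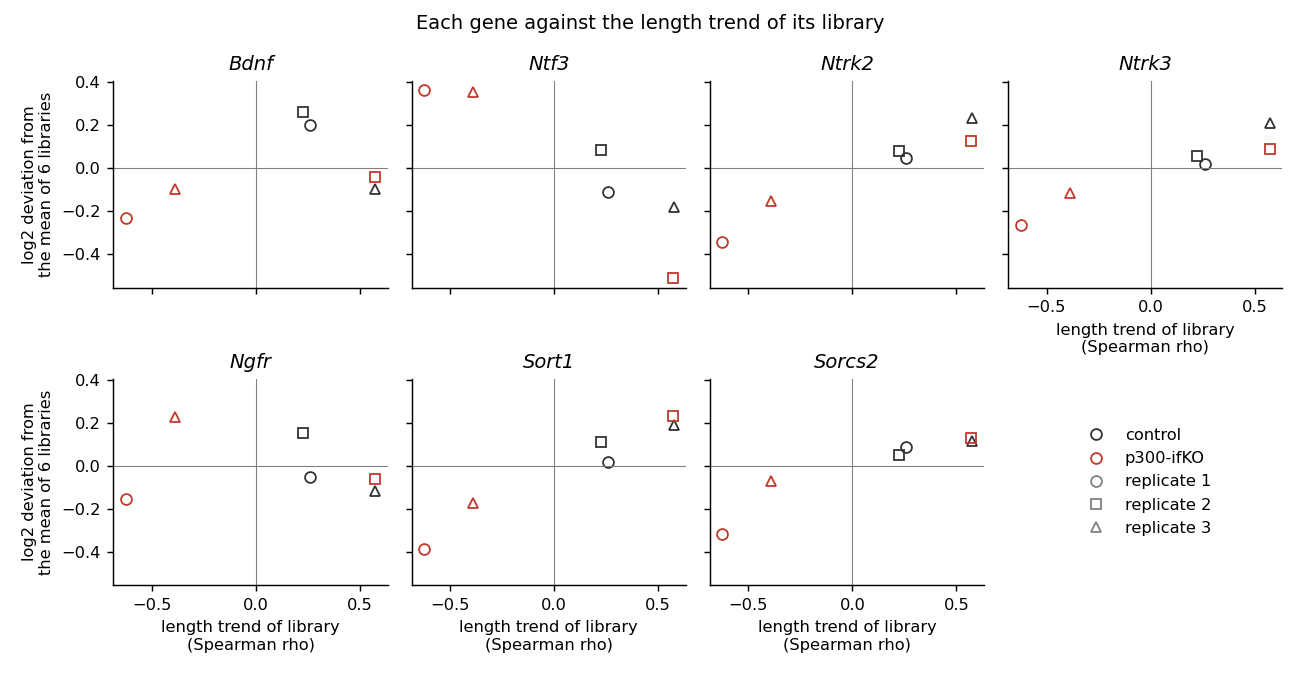
Log2 deviation of each gene from its mean over the 6 libraries (vertical axes) against the length trend of the library, as Spearman's rho over 13608 genes (horizontal axes), for control (black) and p300-ifKO (red) mice. Ntrk2, Ntrk3, Sort1 and Sorcs2 climb with the trend and Ntf3 falls with it, while Bdnf and Ngfr are scattered.

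When smooth length and GC offsets for each library were put into DESeq2, the differences shrank or turned. Offset-normalized counts of Ntrk2 were 13407, 13838 and 12469 in controls and 13683, 12858 and 12737 in p300-ifKO, and the log2 fold change was -0.016. The fold change of Ntrk3 turned to 0.10 and that of Sort1 was -0.12. Bdnf came to -0.11 with offsets, but kept -0.24 with 1 surrogate variable in DESeq2, a fit in which Ntrk2, Sort1 and Sorcs2 were at -0.072, -0.0064 and -0.022 and Ntf3 at -0.12. In edgeR with 1 surrogate variable, Bdnf had an unadjusted p of 0.0375, as had 2.70% of genes below 0.05, and an adjusted p of 1. No member was called in either of these fits.

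Members were called in 1 DESeq2 fit, that without p300-ifKO replicate 2. In it Ntrk2 (log2 fold change -0.37, DESeq2 adjusted p = 0.0494) and Sort1 (-0.38, adjusted p = 0.0412) passed the threshold in DESeq2, as did 2.97% of the 32019 genes tested (951 genes; 1.4% were lower). Ntrk3 was at -0.28 (DESeq2 adjusted p = 0.109), Sorcs2 at -0.27 (adjusted p = 0.155), Bdnf at -0.29 (adjusted p = 0.197) and Ntf3 at 0.43 (adjusted p = 0.159). The remaining pair of p300-ifKO mice lay below all controls for 4 members (Ntrk2, Ntrk3, Sort1, Sorcs2) and above them for 1 (Ntf3), while 26.7% of the genes with a mean of at least 50 normalized counts lay below and 26.5% above. Neither gene was called in the 2 other fits run on the same libraries. With these 5 libraries edgeR called 0.0115% of genes (2 genes). Its log2 fold changes stayed at -0.36 for Ntrk2 and -0.38 for Sort1 (edgeR unadjusted p = 0.0084 and 0.0062, adjusted p = 0.164 for both). On simulated counts of 6 libraries, edgeR recovered 0% of 200 genes changed 1.5-fold, and DESeq2 36%. The lack of a call in edgeR therefore cannot decide whether the DESeq2 calls hold. DESeq2 with length and GC offsets called 1.51% of genes. It gave -0.0074 (DESeq2 adjusted p = 0.980) for Ntrk2 and -0.23 (unadjusted p = 0.0176, adjusted p = 0.138) for Sort1. The part that Ep300, which was highest among p300-ifKO mice in replicate 2, and the length trend have in this was not tested.

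**Figure D4:**
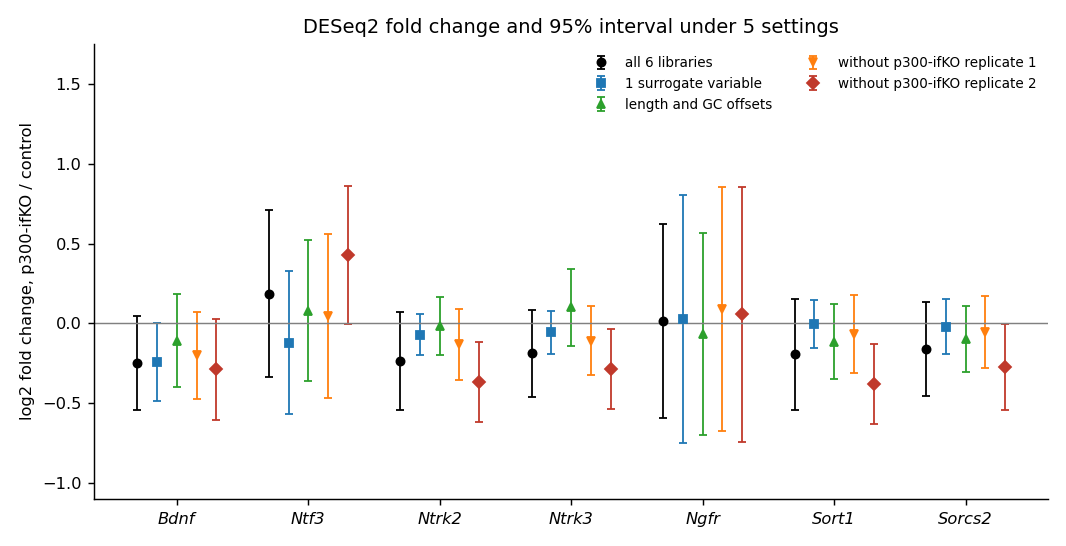
DESeq2 log2 fold change of p300-ifKO over control with its 95% interval (vertical axis) for each gene under 5 settings, marked by colour and symbol. With all 6 libraries every interval holds 0, and without p300-ifKO replicate 2 those of Ntrk2, Ntrk3, Sort1 and Sorcs2 lie below 0.

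A further 4 genes of the ligand and receptor families were read in the same way. Of these, 3 were lower and 1 was higher (median log2 fold change -0.19), and none passed the DESeq2 test before or after adjustment. Ntf5, the gene of neurotrophin-4, had 4 to 7 counts in a library. Of the remaining sortilin family, Sorl1 was at 8225, 8354 and 10369 normalized counts in controls and at 6959, 9518 and 7407 in p300-ifKO (log2 fold change -0.17, SE 0.17). Sorcs1 had a log2 fold change of -0.31 (SE 0.20) and Sorcs3 of -0.21 (SE 0.18), and the groups overlapped for both.

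The genes around the receptors were read from lists that hold their known partners. Of 41 genes of Trk adaptors and signal relay (Shc, Frs2, Ras, MAP kinase, PI3 kinase and phospholipase genes), 30 were lower and 11 higher, with a median log2 fold change of -0.11. Over all genes 54.7% were lower, with a median of -0.046. Over genes with a mean of at least 50 normalized counts, as these 41 have, 50.6% were lower, with a median of -0.0043. None of the 41 had a DESeq2 or edgeR p under 0.05 before or after adjustment with all 6 libraries. Without p300-ifKO replicate 2, DESeq2 called 2 of the 41, Map2k5 (higher) among them, where it called 2.97% of all genes tested. The median of the list was -0.17 in that fit. On the same libraries, neither edgeR nor DESeq2 with length and GC offsets called any of the list. The smallest p belonged to Map2k2 (2160, 2051 and 1897 normalized counts in controls, 3144, 2037 and 2335 in p300-ifKO; log2 fold change 0.30, SE 0.18) and Map2k5 (0.31, SE 0.19), kinases that activate ERK proteins. For both, p300-ifKO replicate 1 was the highest library and replicate 2 lay among the controls.

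Of 10 proneurotrophin processing genes with a p, 7 were lower and 3 higher (median -0.13), led by Pcsk6, a proprotein convertase (-0.19, SE 0.15), and Serpini1, the gene of the protease inhibitor neuroserpin (-0.16, SE 0.15). Another listed gene had no count in any library. Of 16 partners of Trk and p75NTR, 7 were lower and 9 higher (median 0.031), and the smallest p belonged to Bex3, which encodes a p75NTR-associated protein (0.34, SE 0.23), and Rtn4r, the gene of the Nogo receptor (0.28, SE 0.20). Bex3 is also listed under its older name Ngfrap1, which matched no row. Of 9 genes known to respond to BDNF, 5 were lower and 4 higher (median -0.0095). Among these, Npy (neuropeptide Y) was at 1113, 1000 and 1002 normalized counts in controls and at 1866, 944 and 1201 in p300-ifKO, and Egr3, an activity-induced transcription factor, at 2203, 2205 and 2134 and at 1202, 2548 and 2000. None of the genes of these 3 lists had a DESeq2 or edgeR p under 0.05 before adjustment with all 6 libraries. Without p300-ifKO replicate 2, DESeq2 called 2 partners (Bex3 and Rtn4r, both higher) and 1 gene known to respond to BDNF (Npy, higher). It called 2.97% of all genes tested in that fit. There 7 of the 9 genes known to respond to BDNF were lower, with a median of -0.24. On the same libraries, neither edgeR nor DESeq2 with length and GC offsets called any gene of these 3 lists.

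**Figure D5:**
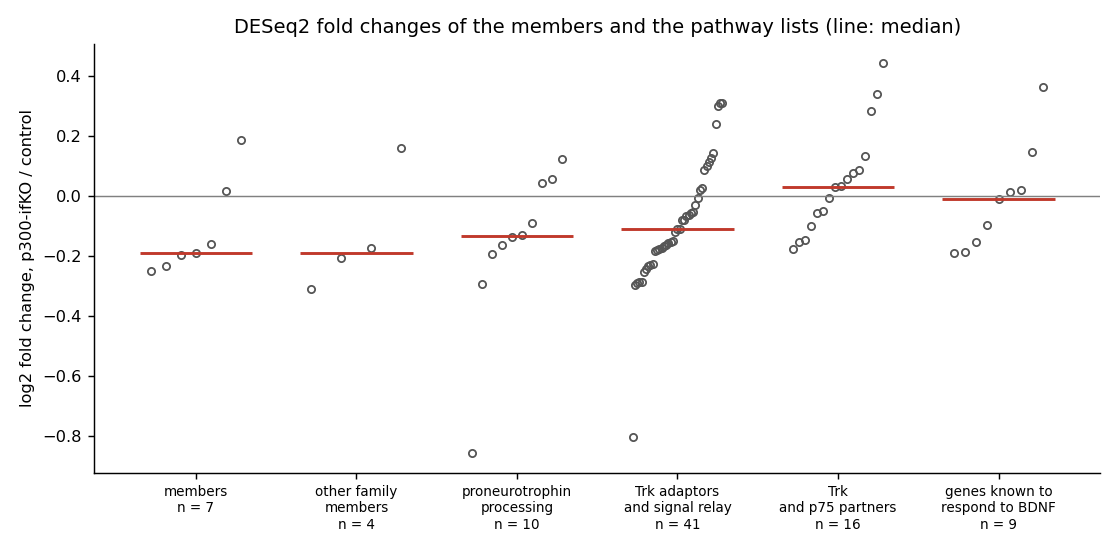
DESeq2 log2 fold change of p300-ifKO over control (vertical axis) for the 7 members, the 4 further family members and the 4 lists of surrounding genes, each point a gene and each red line a median. The medians lie between -0.190 for the further family members (-0.189 for the members) and 0.031 for the partners, and no gene shown passed the test.

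Markers of the cell types of the tissue were read beside these genes. The 4 markers of oligodendrocyte precursors were all lower (median log2 fold change -0.27, summed RPKM 16.6 to 19.8 in controls and 11.8 to 17.3 in p300-ifKO), and 7 of 9 microglial markers were higher (median 0.26, 187 to 208 and 201 to 302). Markers of dentate granule cells were lower for 7 of 7 (median -0.15, 89.3 to 102 and 83.5 to 96.8). Astrocyte markers, which matter for Ntrk2, were lower for 6 of 9 (median -0.036, 802 to 839 and 760 to 879), and 7 of 7 markers of meninges and fibroblasts were lower (median -0.46, 19.1 to 32.7 and 14.1 to 21.5). Choroid plexus markers were higher for 6 of 7 (median 0.34, 7.09 to 102 and 31.6 to 161), oligodendrocyte markers for 8 of 10 (median 0.14, 791 to 1082 and 842 to 1090) and excitatory neuron markers for 6 of 9 (median 0.074). CA1 pyramidal cell markers were lower for 5 of 6 (median -0.17, 141 to 166 and 136 to 144), and the medians of the remaining 4 lists (interneurons, endothelium, CA2, CA3) lay between -0.066 and 0.041. At an unadjusted DESeq2 p under 0.05 were 2 of 9 microglial markers and 1 of 9 excitatory neuron markers, which were higher. Lower at that threshold were 1 of 9 astrocyte and 2 of 7 meningeal markers. No marker of the other lists was under it, nor was any called after adjustment. Of all genes tested, 1.32% had an unadjusted p under 0.05. In p300-ifKO replicates 1, 2 and 3 the microglial sums were 302, 201 and 241 RPKM, and those of oligodendrocyte precursors 11.8, 17.3 and 16.1. In both lists replicate 2 lay within the range of the controls. For dentate granule cells the sums were 96.8, 83.5 and 88.0, with replicate 2 below every control. The part of the length trend in the markers was not tested, nor was the part of these cells in the values of the 7 members.

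Genes whose log2 normalized counts were most like each member over the 6 libraries were picked from 13613 genes with a mean of at least 50. For Bdnf these were Gabra5, an alpha subunit of the GABA-A receptor (r = 0.984), and Syngr1, a synaptic vesicle protein (r = 0.978). Ntf3 was closest to Nudcd2 (r = 0.992) and Rom1 (r = 0.976), and Ngfr to Rap1b (r = 0.978) and Kif20a (r = 0.975). The long receptors were closest to Akap6 for Ntrk2 (r = 0.998), Osbpl6 for Ntrk3 (r = 0.999), Tgfbrap1 for Sort1 (r = 0.998) and 5330434G04Rik for Sorcs2 (r = 0.9998), and the first 3 next to Sntb1, Fat4 and A730060N03Rik in the same order. The highest of some 13613 values over 6 libraries is high for any gene, so these name libraries that rise and fall alike and no more.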

How the data were processed

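RNA-seq libraries of single mouse hippocampi (3 p300-ifKO, 3 control) were used, with groups and replicate numbers from the sample titles. Per the methods and processing notes, the authors checked single-end 50 bp reads with FastQC 0.11.8, trimmed them with Trim Galore 0.6.4, aligned them with STAR 2.6.1 to GRCm38, kept a mapping quality above 10 and counted reads on exons of Ensembl genes with Rsubread, and the deposited table holds these raw counts per gene. A strand setting is not given in the sources used here, so genes overlapping on opposite strands are uncertain, and the quality limit lowers genes with near-identical copies. Nothing resolves exons or isoforms. Of 55471 genes, 55230 (99.57%) matched GENCODE M21, which gave symbols, coordinates and GC content.

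DESeq2 1.42.0 (R 4.3.3, two-sided Wald test, no covariate, default Cook filtering, independent filtering at 0.05) was fitted on the whole table, with Benjamini-Hochberg adjustment over all genes tested and a threshold of 0.05. The study used the same tool in version 1.30.1. Alternatives were edgeR 4.0.16 (quasi-likelihood, with and without its filter), limma-voom (limma 3.58.1), TMM factors, at least 10 counts in at least 3 libraries, no Cook filtering, no independent filtering, an adjusted p under 0.1, the replicate number as a block, 1 surrogate variable (sva 3.50.0), length and GC offsets (mgcv 1.9.3, fitted on genes with a mean above 10) and leaving out each library. Offsets and edgeR on p300-ifKO replicates 1 and 3 against controls were added after seeing the data. Scripts were tested on simulated counts of 6 libraries with 200 genes changed. At 2-fold, DESeq2 recovered 86.5% of them (23 false calls) and edgeR 79% (6 false calls). At 1.5-fold, DESeq2 recovered 36% (13 false calls) and edgeR 0% (1 false call). Changes below 1.5-fold were not simulated. Most alike genes used log2(normalized count + 1).

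Members and lists were chosen with earlier results of these data known. Named genes were the 7 members, the further family members, Ep300 and Esr1, the 2 genes of smallest p in each pathway list, the 2 genes most like each member, and the ends of a range. Some genes that this rule would name are not reported here. The antisense genes Gm45346 and Gm12523 were named because they overlap members. P-values set the difference between groups against the spread between these mice, which DESeq2 and edgeR estimate with information shared across genes.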

Additional observations from a re-analysis of the deposited data

How the results depend on the processing

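With all 6 libraries, no member was called under any alternative fit, and Bdnf, Ntrk2, Sort1 and Sorcs2 stayed below 0 in each. Direction turned for Ntf3 with 1 surrogate variable (-0.12 in DESeq2 and in edgeR, on the log2 scale), and with length and GC offsets for Ntrk3 (0.10, and 0.17 with p300-ifKO replicates 1 and 3 only) and Ngfr (-0.068 and -0.076). The replicate block moved the number of genes called from 2 to 4 and called no member. Same-numbered mice deviated with correlations of 0.37, -0.37 and 0.16 over 13614 genes. These deviations also carry the length trend of each library, so they cannot show whether same-numbered mice were paired.

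Leaving out 1 library at a time, log2 fold changes ran from -0.35 to -0.18 for Bdnf, 0.047 to 0.43 for Ntf3, -0.37 to -0.13 for Ntrk2, -0.28 to -0.11 for Ntrk3, -0.11 to 0.10 for Ngfr, -0.38 to -0.067 for Sort1 and -0.27 to -0.053 for Sorcs2, and 2 to 951 genes were called. The upper count, and the calls of Ntrk2 and Sort1, came without p300-ifKO replicate 2, and length and GC offsets on those libraries gave 483 calls and no member. Log2 differences of ratios ran from -0.17 to 0.091 for Bdnf to Ntrk2, 0.0997 to 0.72 for Ntf3 to Ntrk3, -0.71 to -0.18 for Bdnf to Ntf3, -0.083 to -0.025 for Ntrk2 to Ntrk3, 0.12 to 0.41 for Ngfr to Ntrk2 and -0.11 to -0.0070 for Sort1 to Sorcs2.

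The median log2 fold change of the members moved to -0.057 and -0.056 with 1 surrogate variable in DESeq2 and edgeR and to -0.058 with offsets on p300-ifKO replicates 1 and 3, and ran from -0.28 to -0.067 over libraries left out. That of the relay list moved to 0.0048 and 0.0035, and that of the partners to -0.0098 and -0.0084, with 1 surrogate variable in the 2 tools, and the partners to 0.075 with those offsets. Processing genes moved to 0.0036 with offsets, and to 0.016 on the fewer libraries. The further family members moved from -0.19 to -0.027 with 1 surrogate variable in DESeq2, and ran from -0.34 to -0.077 over libraries left out. Over the same fits the median ran from -0.17 to -0.038 for the relay list, 0.0067 to 0.062 for the partners, -0.21 to -0.015 for processing genes and -0.24 to 0.070 for genes known to respond to BDNF, which came to 0.098 (7 of 9 higher) with 1 surrogate variable in DESeq2. With the longest transcript as length, control levels became 101 RPKM for Sort1, 65.2 for Ntrk2, 13.4 for Ntrk3, 12.5 for Sorcs2, 10.1 for Bdnf and 4.61 for Ntf3. Where no construction is named, the cause was not tested. Depth limits Ngfr and Ntf5 most.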
